A study of Mus musculus with 13 samples.

Results

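The cytosolic ribosomal protein genes described here encode the proteins of the large and small subunits of the cytoplasmic ribosome, together with a few paralogs and associated genes of the same naming. They were chosen as protein-coding mouse genes whose symbol is Rpl or Rps followed by a digit, or is Rplp0, Rplp1, Rplp2 or Rpsa, leaving out the Rps6k kinases. The gene body also had to overlap at least 1 H3K27ac region. Of 91 genes with such a symbol, 83 had a region, out of 13970 protein-coding genes with a region in all. The 8 without a region were Rpl10l, Rpl31-ps12, Rpl32l, Rpl34-ps1, Rpl37rt, Rpl39l, Rps23rg1 and Rps27rt. By role, 43 of the 83 belong to the large subunit, 31 to the small subunit and 3 to the acidic stalk, and 6 are paralogs or associated genes (Rpl3l, Rpl7l1, Rpl22l1, Rpl36al, Rps19bp1 and Rps27l).

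Ribosomal protein genes are transcribed strongly in nearly every cell, because each ribosome needs its proteins in matched amounts. Their promoters are known for CpG-rich sequence without a clear TATA box and for a start site inside a run of pyrimidines. That run becomes the terminal oligopyrimidine tract at the start of the mRNA, through which mTOR and the RNA-binding protein Larp1 control translation. H3K27ac, acetylation of lysine 27 on histone H3, marks active promoters and enhancers.

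The mark was measured by chromatin immunoprecipitation and sequencing, with the antibody ab4729, in macrophages grown from the bone marrow of IL10-/-RAG2-/- mice of the strain 129S6/SvEvTac. All groups shared this genotype, in which the cells cannot make IL-10 and the animals lack mature lymphocytes, and all were grown in medium conditioned with M-CSF. There were 4 groups of 3 libraries, drawn per the series' design text from 3 independent pools of macrophages: untreated cells, cells given 1 ng/mL LPS (bacterial lipopolysaccharide) for 195 min, cells given LPS and 1 ng/mL IL-10 together for 195 min (continuous IL-10), and cells given LPS for 195 min with IL-10 present during the final 30 min (late IL-10). How many animals made up a pool is not stated in the labels. Fewer cells carrying the mark and less mark per cell cannot be told apart in such bulk samples.

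Depth differed between libraries. The deposited signal corresponds to between 5149730 and 12698228 reads in regions for 10 libraries, but to 26922552 in untreated replicate 3 and 20884182 in LPS replicate 3. All 6 LPS response genes chosen as a check (Cxcl10, Ifit1, Il6, Nfkbia, Rsad2 and Tnf) were called higher with LPS, and all 10 macrophage markers examined had a region. Some other markers had regions too: 4 of 6 for T cells, 2 of 4 for B cells, 5 of 7 for neutrophils, 6 of 6 for dendritic cells and 3 of 5 for fibroblasts. Among the defining genes without a region were Cd3g, Cd8b1, Pax5, Ly6g and Mpo. The summed fibroblast list ranged from 7236 to 9764 without treatment and from 4022 to 5697 with LPS, the B cell list from 2500.5 to 3245 and from 1538 to 1914, and the neutrophil list from 2907 to 4349.7 and from 2267 to 2689.6. The dendritic list was higher with LPS, from 6065 to 6807 and from 7708 to 14887, and the T cell list overlapped, from 538 to 1039 and from 687 to 797. With continuous IL-10 the neutrophil (3593 to 4016) and fibroblast (5846 to 6284) sums lay above those with LPS and the T cell sum (388 to 508) below, and with late IL-10 the B cell sum (1983 to 3066) lay above. The part of other cells in the results below was not tested.

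H3K27ac at ribosomal protein genes formed compact, dense blocks over the start site. Of the 83 genes, 79 had a single region and 4 had 2 regions (Rpl6, Rps15a, Rpl3l and Rpl7l1), whereas 54.6% of all genes with a region had a single one. The median summed region width was 3848 bp, against 6736.5 bp for all genes with a region. The mean signal per kb of region over the 12 libraries had a median of 89.0 for ribosomal protein genes and 44.9 for all genes, on the deposited scale. The middle of the ribosomal distribution, from 69.1 to 112 per kb between the quartiles, lay mostly above the upper quartile of all genes at 73.6 per kb. Related genes shared parts of this pattern. The median was 92.1 per kb over 6613.5 bp for 26 translation factors and other genes of terminal oligopyrimidine mRNAs, with 69.2% having a single region. For 78 mitochondrial ribosomal protein genes it was 67.6 per kb over 3234 bp, with 76.9% having a single region. Of 63 members with a start site in the RefSeq promoter table, 62 (98.4%) had it inside one of their own regions, against 9874 of 11235 genes (87.9%). The exception was Rpl3l. No region was shared by a pair of ribosomal protein genes, but 32 of the 83 had a region that also overlapped another protein-coding gene.

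The promoters were searched for the features the family is known for, which some windows held and others lacked. Windows of 300 bases, from 250 before the start to 50 after it, were found for 63 members (75 windows) in a RefSeq-derived table on GRCm38.p6 (mm10). A run of 7 or more pyrimidines on the gene's strand, touching the 10 bases on either side of the start, was present in 34 of the 75 windows (45.3%), against 19.7% of all 32851 windows of this length. The median longest run there was 6 bases for members and 4 for all windows. The motif CCGGAAG, letters bound by GABP and other ETS factors, was found on either strand in 34.7% of member windows and 8.86% of all windows. AAGATGGC, the core of the YY1 motif, was in 10.7% and 2.75%, and GGGCGG, the Sp1 box, in 61.3% and 35.7%. TATAAA was in 9.33% and 13.6%. Among the 14266 windows of genes with a region, the shares were 16.0% for CCGGAAG, 4.00% for AAGATGGC, 58.3% for GGGCGG, 7.95% for TATAAA and 19.7% for the pyrimidine run, so for the Sp1 and TATA letters the members lay near other marked genes. The median number of CpG sites per window was 22 for members, 19 for genes with a region and 7 for all windows. These matches describe letters in a window and were not tested as sites.

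The sequences below run from 50 bases before the start to 20 bases from it, 5′ to 3′ on the gene's strand, with capitals for a pyrimidine run of 7 or more that touches the 10 bases on either side of the start; runs farther off stay in lower case. The first 3 show the longest runs of the family, at chr2:26910757-26910826 (+) for Rpl7a, chr7:109519145-109519214 (+) for Rpl27a and chr3:130730318-130730387 (-) for Rpl34.
Rpl7a: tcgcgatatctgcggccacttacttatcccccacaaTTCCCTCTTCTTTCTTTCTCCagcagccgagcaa
Rpl27a: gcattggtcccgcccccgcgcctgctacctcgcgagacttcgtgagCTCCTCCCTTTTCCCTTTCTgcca
Rpl34: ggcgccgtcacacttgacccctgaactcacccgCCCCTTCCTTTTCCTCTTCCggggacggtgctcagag
The next is Rpl18, the member with the densest mark, at chr7:45718021-45718090 (+).
Rpl18: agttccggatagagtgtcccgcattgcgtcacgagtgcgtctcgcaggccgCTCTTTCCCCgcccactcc
The last 4 belong to members whose mark differed with LPS: Rpl12 at chr2:32961662-32961731 (+), Rps24 at chr14:24490628-24490697 (+), Rpl24 at chr16:55966225-55966294 (+) and Rpl3l at chr17:24727776-24727845 (+).
Rpl12: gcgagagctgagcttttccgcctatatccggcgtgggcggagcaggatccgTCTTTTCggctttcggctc
Rps24: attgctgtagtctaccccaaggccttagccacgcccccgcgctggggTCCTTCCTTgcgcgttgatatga
Rpl24: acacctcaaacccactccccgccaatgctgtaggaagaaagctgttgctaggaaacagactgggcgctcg
Rpl3l: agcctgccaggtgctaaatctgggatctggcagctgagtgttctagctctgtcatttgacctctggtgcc
Rpl24 and Rpl3l had no such run at the listed start. The Rpl3l window of 300 bases held 2 CpG sites, against 26 in that of Rpl18. Rpl3, whose mark also differed with LPS, had no entry in the table.

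The density of the mark varied widely across the family. Rpl18 was highest at 178 per kb, followed by Rps9 at 155 and Rpl35a at 152, and Rps6, the ribosomal protein phosphorylated by S6 kinase, stood seventh at 139. The region of Rps9 extends over Pirb, an inhibitory receptor gene of myeloid cells, so its signal is not that of Rps9 alone, and the regions of Rpl18 and Rpl35a also overlap Sphk2 and Iqcg. Near the lower end, Rpl3l, a paralog of Rpl3 known from striated muscle, stood at 41.2, before Rps15a at 41.5, Rps24 at 42.3 and Rps4x at 48.3. By role, the median was 92.2 per kb for the large subunit, 88.4 for the small subunit, 82.1 for the stalk genes and 67.9 for the paralogs and associated genes, with wide overlap between roles.

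The family's median level in LPS libraries overlapped that in untreated ones, and replicates spread widely. The median signal over the 83 genes was 269, 231 and 517 in untreated replicates 1, 2 and 3, and 236, 323 and 563 with LPS. Continuous IL-10 libraries gave 389, 377 and 420, and late IL-10 libraries gave 278, 319 and 398. Replicate 3 was the highest and also the deepest library in every group. It was the highest of the 3 at 81 of 83 members without treatment (76.0% of all genes) and at 70 of 83 with LPS (66.6% of all genes). On the log2 scale, replicate 3 exceeded the mean of the other replicates by a median of 1.10 at members without treatment and 1.13 with LPS, against 0.75 and 0.81 at all genes. With continuous IL-10 the excess was 0.17 at members and 0.31 at all genes.

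**Figure D1:**
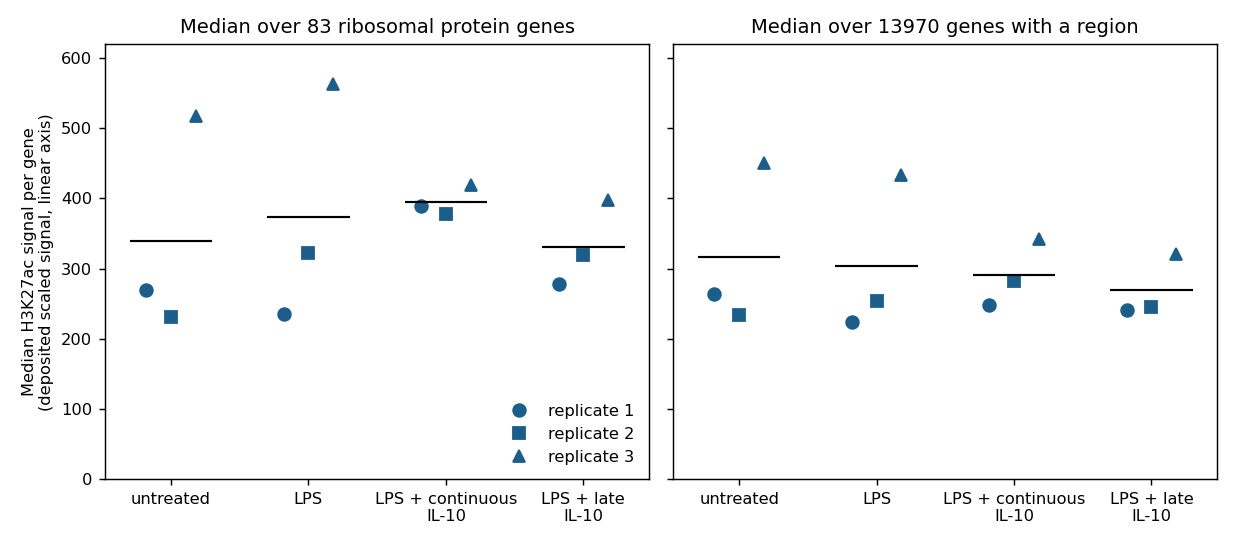
Median H3K27ac signal per gene in each library, over the 83 ribosomal protein genes (left) and all 13970 genes with a region (right); the y axis is the deposited scaled signal, symbols are replicate numbers and lines are means of 3 libraries. Replicate 3 is highest in each group, and the 3 libraries with continuous IL-10, at 377 to 420 for the ribosomal protein genes, lie closest together.

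Between LPS and untreated cells, 2 ribosomal protein genes were higher, Rps24 and Rpl24, and 5 were lower, among them Rpl3, Rpl3l and Rpl12, at an adjusted p under 0.05 (limma across 12573 genes, all 83 members included). Of all genes tested, 12.8% were called higher and 11.4% lower. This fit had group as its only term. With the replicate number as a block, limma called 18.3% of all genes higher and 21.5% lower. More members were then lower, as given with the alternative settings at the end. The median log2 difference over the members was 0.08, beside -0.10 over all genes. It was 0.12 for the large subunit, 0.16 for the small subunit, -0.24 for the stalk genes and -0.52 for the paralogs. The count tests on recovered reads called 4 higher and 6 lower (edgeR) and 9 higher and 6 lower (DESeq2). Of all genes, edgeR called 15.3% higher and 11.9% lower and DESeq2 18.9% and 15.6%, and both shifted the median of all genes by 0.14. The sign of the members' median depended on single libraries: it was -0.03, -0.10 and -0.29 without untreated replicate 1, untreated replicate 2 or LPS replicate 3, and 0.40 and 0.38 without untreated replicate 3 or LPS replicate 1. Within same-numbered pairs of libraries it was -0.25, 0.46 and 0.13.

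Among large subunit genes, Rpl24 rose with LPS. Rpl24 encodes a protein at the contact face between the subunits, and its region (chr16:55965092-55970411) overlaps no other protein-coding gene. Its signal was 158, 166 and 275 without treatment, and 817, 1104 and 533 with LPS. All LPS libraries lay above all untreated libraries, and the mean went from 199.7 ± 65.4 to 818 ± 286 (SD, n = 3). The log2 difference was 2.01 (SE 0.39, limma adjusted p = 0.00224). The libraries with continuous IL-10 stood at 764, 658 and 493, and those with late IL-10 at 808, 944 and 440. Neither IL-10 group differed from LPS at this gene by the test (log2 differences of -0.32 and -0.17, adjusted p = 0.84 and 0.999).

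Rpl3, whose protein reaches towards the peptidyl transferase centre, fell with LPS. Its region (chr15:80057619-80085527) spans 27909 bp, runs 20162 bp past one end of the gene and overlaps no other protein-coding gene. The signal was 3212, 3375 and 5027 without treatment and 846, 931 and 1734 with LPS. The untreated and LPS libraries did not overlap, and the log2 difference was -1.77 (SE 0.37, limma adjusted p = 0.00357). Continuous IL-10 gave 1153, 1015 and 1828 and late IL-10 gave 671, 593 and 1280, so all 9 treated libraries stayed below the lowest untreated one.

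Rpl12, which encodes a protein at the base of the stalk, also fell with LPS by the test. The Rpl12 region (chr2:32959906-32971204) is shared with Lrsam1. Rpl12 stood at 1063, 900 and 1307 without treatment and at 425, 487 and 850 with LPS, a difference of -0.94 (SE 0.31, limma adjusted p = 0.0412). The groups did not overlap. The call was lost when any of the 3 untreated libraries or LPS replicate 1 or 2 was left out, with limma adjusted p between 0.0563 and 0.165, and held without LPS replicate 3.

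Rps24, a small subunit gene whose human counterpart is mutated in Diamond-Blackfan anaemia, rose with LPS. Its region (chr14:24489955-24497255) covers the whole gene and no other protein-coding gene. The signal was 125, 46.6 and 202 without treatment and 714, 509 and 414 with LPS. The groups did not overlap, and the mean went from 124.7 ± 77.8 to 546 ± 154 (SD, n = 3), a log2 difference of 2.32 (SE 0.56, limma adjusted p = 0.00819). With continuous IL-10 the libraries stood at 82.6, 166 and 211, within reach of the untreated ones and all below the LPS ones. With late IL-10 they stood at 576, 403 and 252, overlapping LPS. Continuous IL-10 minus LPS was -1.89 (95% interval -3.09 to -0.69, limma adjusted p = 0.0731), which missed the threshold. With the replicate number as a block the limma adjusted p was 0.0239, with DESeq2 it was 0.00488, and without LPS replicate 3 it was 0.0416 (limma). Rps24 was not called here by edgeR, with a pseudocount of 10 (limma adjusted p = 0.064), or without any other single LPS or continuous IL-10 library. Late minus continuous IL-10 was 1.44 (0.24 to 2.64, limma adjusted p = 0.208; DESeq2 adjusted p = 0.036).

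**Figure D2:**
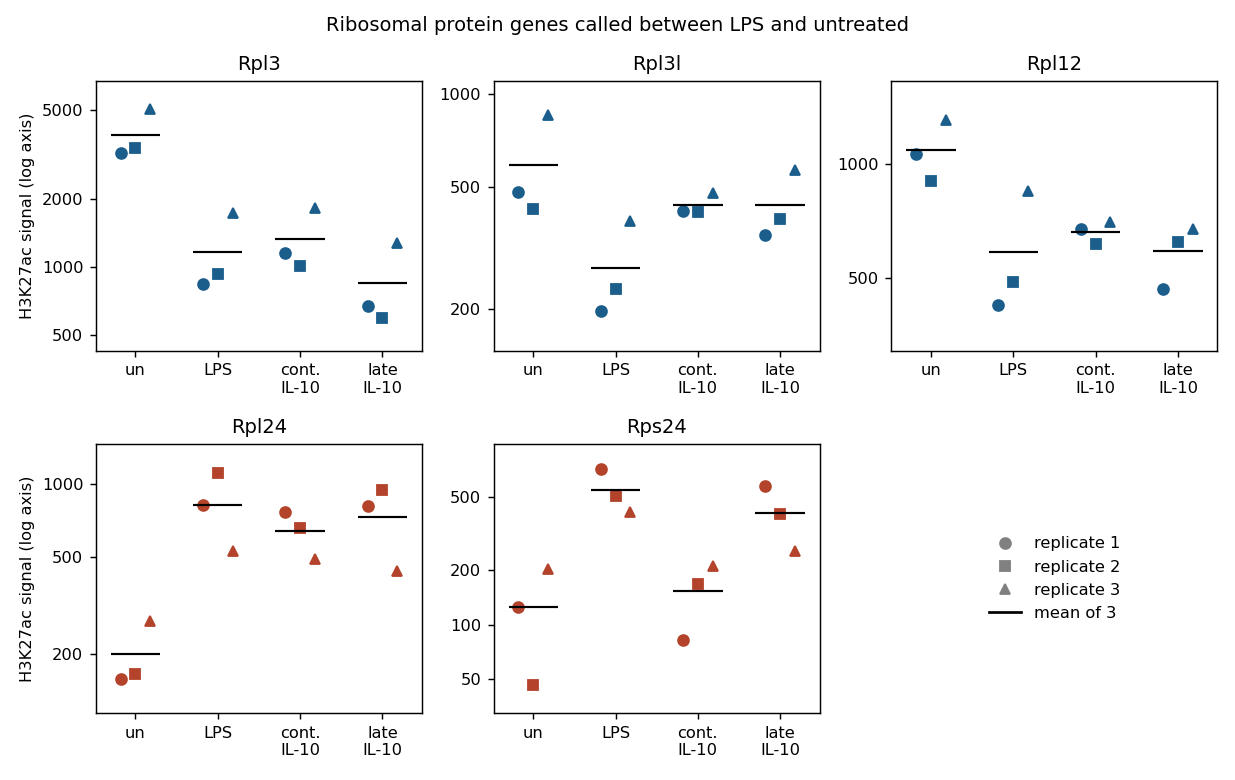
H3K27ac signal (log axis) in each library at 5 of the 7 ribosomal protein genes called between LPS and untreated cells; symbols are replicate numbers, lines are means of 3 libraries, and red and blue mark genes higher and lower with LPS. At Rps24 the libraries with continuous IL-10 (82.6 to 211) lie near the untreated ones (46.6 to 202) and below the LPS ones (414 to 714).

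None of the 3 stalk genes was called in any comparison by limma, edgeR or DESeq2, and none reached an unadjusted p under 0.05. Rplp0, the scaffold of the stalk and a common reference gene for mRNA measurements, stood at 125, 118 and 320 without treatment, and 66.9, 139 and 434 with LPS. Continuous IL-10 gave 228, 207 and 296, and late IL-10 gave 122, 127 and 227. Its lowest and highest libraries both belonged to the LPS group. Rplp1 ranged from 207 to 500 without treatment and from 110 to 365 with LPS, and Rplp2 from 374 to 931 and from 317 to 841. The untreated and LPS libraries overlapped at all 3 genes.

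At other well-known members the untreated and LPS libraries overlapped as well. Rpsa, also described as a laminin receptor, stood at 189, 149 and 435 without treatment and at 201, 306 and 563 with LPS. Rps6 stood at 349, 171 and 595 and at 287, 329 and 848. Rpl13a, known for translational silencing of inflammatory mRNAs in myeloid cells, stood at 298, 232 and 617 and at 177, 334 and 590. Rps3 ranged from 247 to 447 without treatment and from 211 to 288 with LPS, and Rps18 from 640 to 1561 and from 494 to 1502. None of these 5 genes was called by limma in any comparison.

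Among the paralogs and associated genes, Rpl3l was called lower with LPS. It stood at 481, 424 and 856 without treatment, and 197, 232 and 387 with LPS. Continuous IL-10 gave 416, 415 and 478, and late IL-10 gave 349, 394 and 566. The LPS libraries lay below the untreated and the continuous IL-10 libraries. The difference of LPS from untreated was -1.10 (SE 0.37, limma adjusted p = 0.0476), and it passed the threshold with 1 of the 6 libraries left out, LPS replicate 3, and not with any of the other 5 (adjusted p from 0.0501 to 0.172). The signal came mostly from a region (chr17:24734721-24744219) that covers 17.1% of the gene body, runs 8076 bp past one end of the gene and is shared with Msrb1. The other region, wholly inside the gene (chr17:24729952-24730954), was not called (log2 difference -1.05, limma adjusted p = 0.436). Rpl7l1, a paralog of Rpl7, stood at 419, 407 and 853 without treatment, and 234, 217 and 515 with LPS. Continuous IL-10 gave 582, 400 and 779, and late IL-10 gave 269, 297 and 375. Rpl7l1 was not called with LPS (-0.82, limma adjusted p = 0.196), but was called with the replicate block (0.0239). Rpl22l1 ranged from 85.7 to 268 and from 122 to 401 in the same groups, Rps19bp1 from 87.7 to 287 and from 47.2 to 249, Rps27l from 275 to 659 and from 108 to 596, and Rpl36al from 351 to 913 and from 272 to 1089, all without a call.

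All 5 genes that fell had wide regions. With the members split at a summed width of 10000 bp, a value chosen after the differences were seen, 5 of the 9 wider members were called lower and none higher. The other 4 wide members were Rps9, Rpl10, Rps15a and Rps18. Of all 5327 genes tested with wider regions, 21.1% were lower and 22.0% higher. Of the 74 narrower members, 2 were higher and none lower, where 6.06% and 4.32% of 7246 narrower genes were called. Among the 51 members that share no region with another gene, 2 were higher and 1, Rpl3, was lower, where 12.9% and 11.3% of all 7608 such genes were called. By region rather than gene, 7 of 86 tested member regions were called between LPS and untreated, at the same 7 genes, beside 16.5% of all regions higher and 17.9% lower. No member region was called by limma in the other 3 comparisons, where 3, 1 and 3 regions reached an unadjusted p under 0.05, edgeR called 0 in each, and DESeq2 called 1, 0 and 1. Of all 36621 regions tested, 7176, 4653 and 6289 reached an unadjusted p under 0.05 there. In limma, 1201, 1149 and 680 of all regions were called higher and 1186, 145 and 312 lower. With edgeR these numbers were 813, 833 and 496 higher and 1028, 91 and 180 lower. With DESeq2 they were 1876, 1711 and 2200 higher and 2776, 402 and 920 lower.

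**Figure D3:**
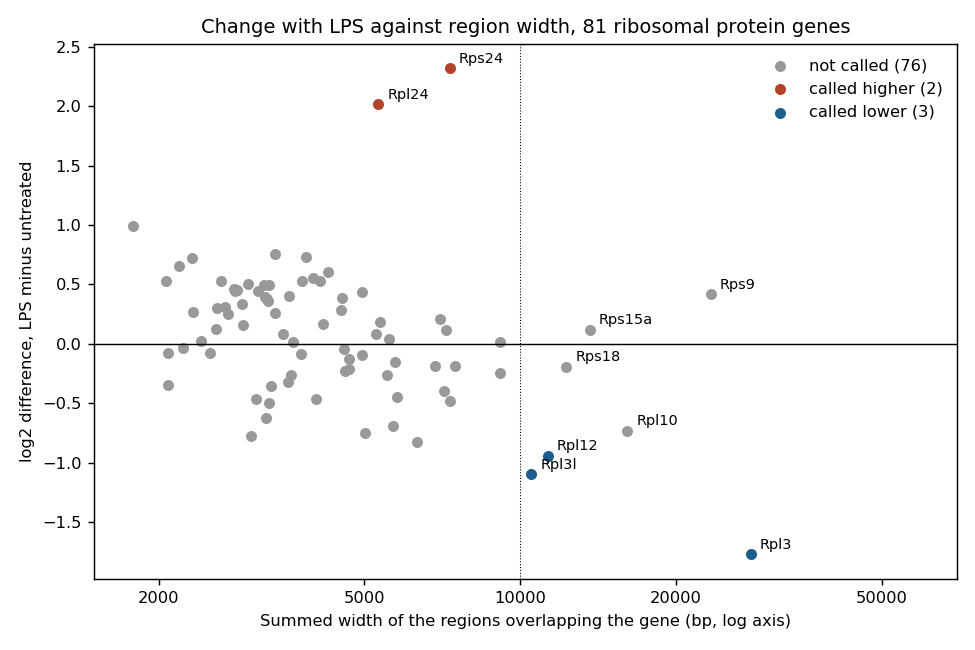
Log2 difference of LPS minus untreated (y axis) against the summed width of a gene's regions in bp (x axis, log scale) for 81 of the 83 ribosomal protein genes; each point is a gene, and the dotted line is at 10000 bp. The 3 genes shown as called lower lie to the right of the line, and the 2 called higher lie to its left.

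How tightly the data bound a change can be read from the intervals. Between LPS and untreated, the 95% interval of the log2 difference lay wholly between -1 and 1 for 13 of the 83 genes, beside 11.2% of all genes tested. With the replicate block it did so for 35 genes, beside 25.3% of all genes. For the other members the interval reached past 1 log2 in at least 1 direction. All untreated libraries lay below all LPS libraries at 2 members (15.9% of all genes with a region) and above them at 6 members (17.3%). The sixth, beside the 5 called genes, was Rpl10, whose protein joins the large subunit late in its maturation. Rpl10 stood at 1165, 1515 and 1610 without treatment and at 803, 1022 and 760 with LPS (log2 difference -0.73, limma adjusted p = 0.057, and 0.0157 with the replicate block). Its region overlaps Dnase1l1 and Taz as well.

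**Figure D4:**
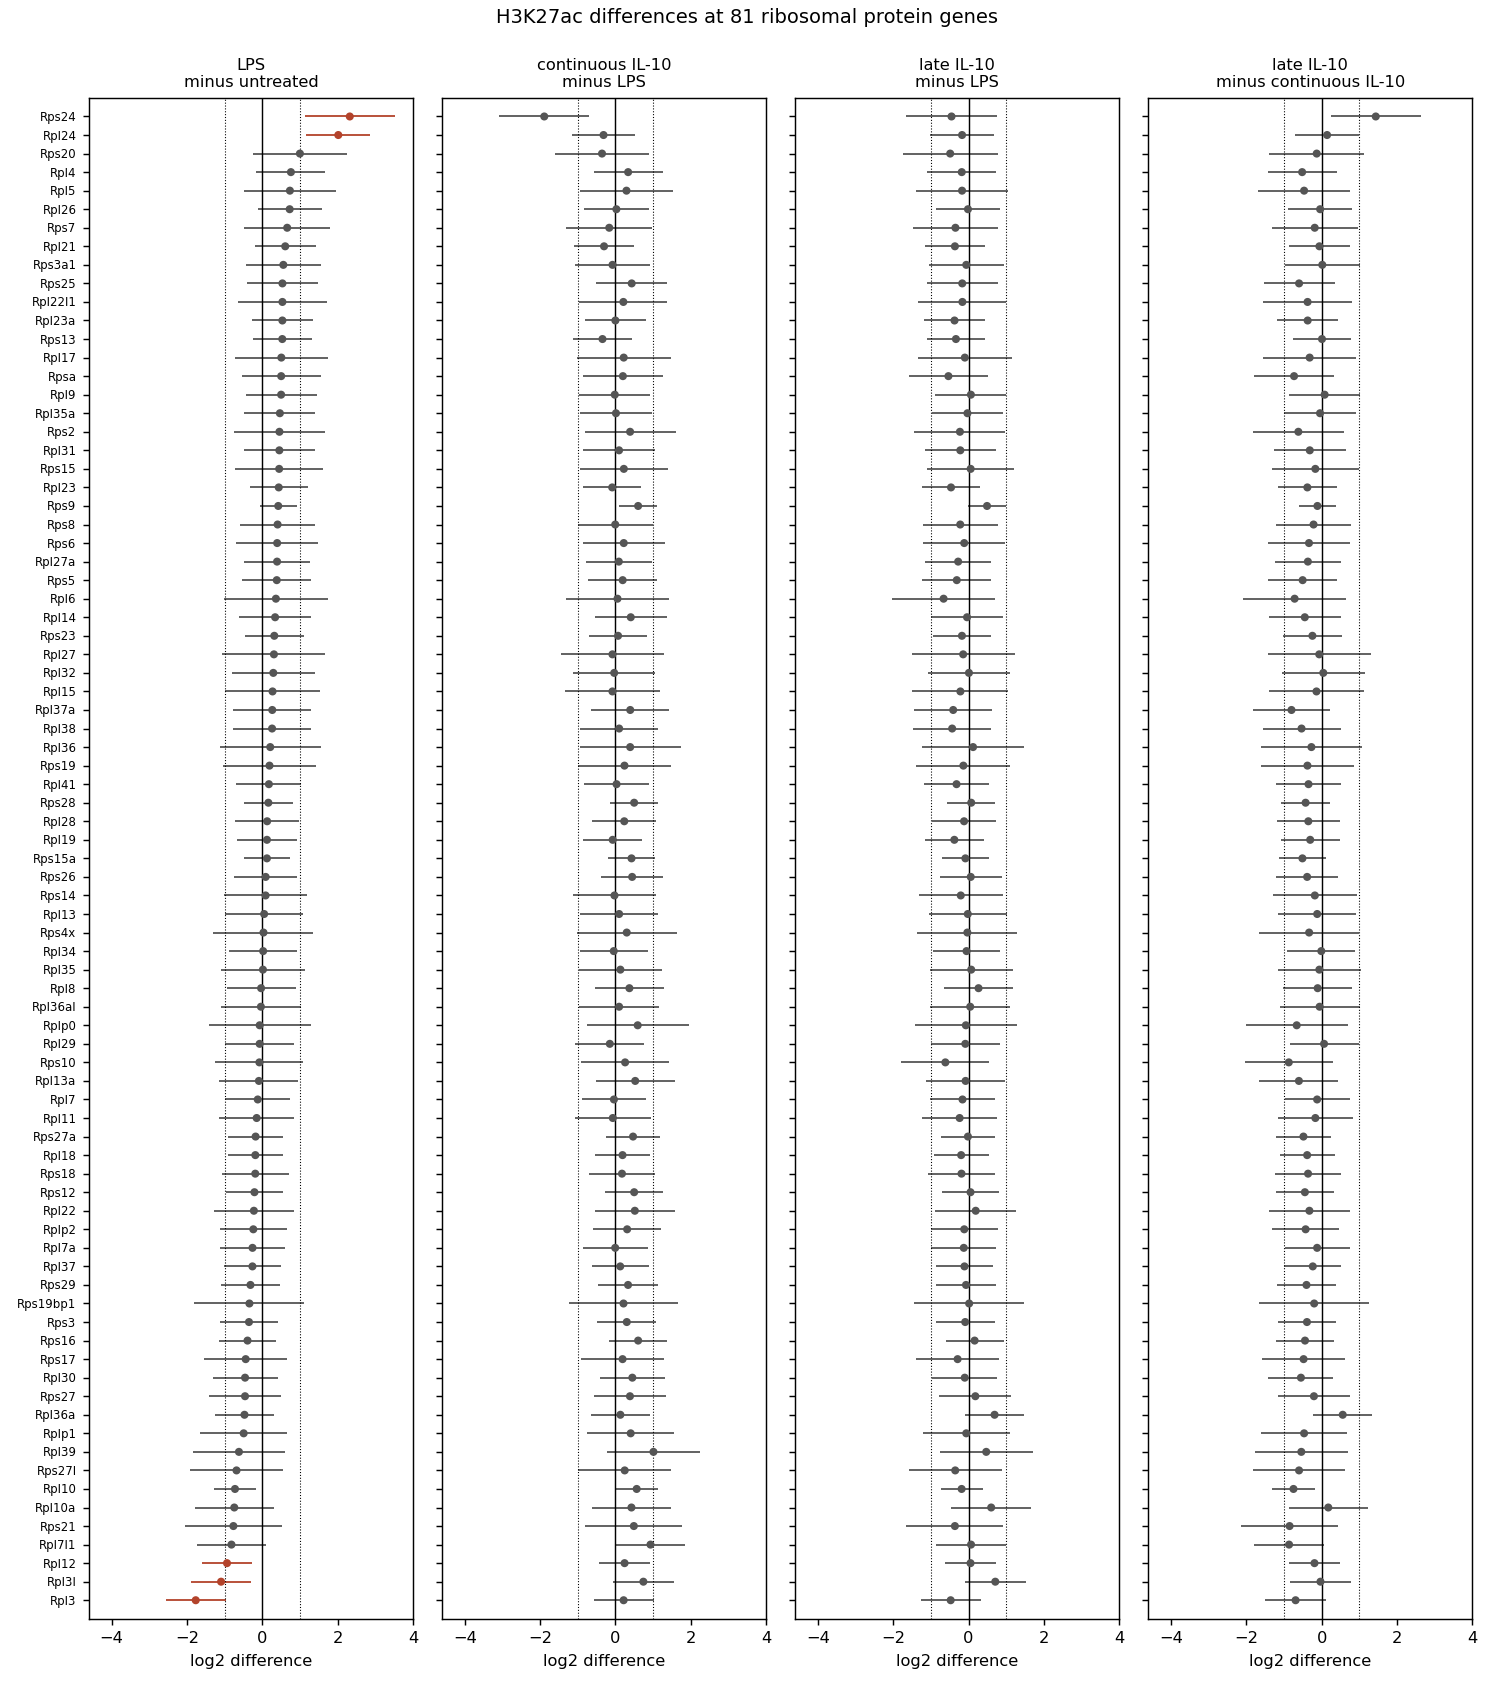
Log2 differences (points) with 95% intervals (lines) for 81 of the 83 ribosomal protein genes in the 4 comparisons, ordered by the LPS difference; red marks an adjusted p under 0.05, and dotted lines mark -1 and 1. Red appears in the first comparison alone, at 2 genes above 0 and 3 below.

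Continuous IL-10 was compared with LPS alone to see what IL-10 does when given from the start. No ribosomal protein gene was called in either direction, where 2.09% of all genes were called higher and 2.56% lower. In limma, 3 members reached an unadjusted p under 0.05 upwards (Rpl10, Rpl7l1 and Rps9) and 1 downwards (Rps24). edgeR called none, beside 1.69% of all genes higher and 1.92% lower. DESeq2 called 2 higher (Rpl3l and Rpl7l1) and 1 lower (Rps24), where DESeq2 called 4.14% of all genes higher and 6.55% lower. With the replicate block Rpl7l1 was higher (log2 difference 0.93, limma adjusted p = 0.0295) and Rps24 lower, beside 6.28% and 8.72% of all genes. The members' median log2 difference was 0.22, beside 0.04 over all genes, and it turned to -0.11 without LPS replicate 1. Within same-numbered pairs it was 0.80, 0.20 and -0.48, so the pairs differed in direction. All continuous libraries lay above all LPS libraries at 7 members (6.99% of all genes) and below them at 1 member, Rps24 (11.8% of all genes). The interval lay within 1 log2 for 16 members, beside 17.6% of all genes, and for 44 with the replicate block, beside 37.5%.

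Late IL-10 was compared with LPS alone to see what the final 30 min with IL-10 change. No member was called, where 2.71% of all genes were higher and 0.215% lower. None reached an unadjusted p under 0.05 in limma, and edgeR and DESeq2 each called 1 member higher, Rpl3l, beside 2.31% and 4.53% of all genes, and none lower, beside 0.183% and 0.978%. With the replicate block no member was called, where 5.77% of all genes were higher and 2.47% lower. The members' differences ran from -0.66 to 0.71 with a median of -0.11, beside -0.17 over all genes. The median was 0.26 without LPS replicate 3 and 0.01 without late IL-10 replicate 1. The interval lay within 1 log2 for 22 members, beside 18.4% of all genes, and for 61 with the replicate block, beside 41.9%.

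The last comparison set late against continuous IL-10, 2 groups that share the LPS exposure and differ in how long IL-10 was present. No member was called in limma, where 1.46% of all genes were higher and 0.509% lower. Rps24 alone was higher and Rpl10 alone lower before adjustment, at p under 0.05. edgeR called none, beside 0.485% of all genes higher and 0.262% lower. DESeq2 called 1 higher, Rps24, and 1 lower, Rpl7l1, beside 5.87% and 2.9% of all genes. With the replicate block 5 members were lower and none higher, beside 6.24% and 8.19% of all genes; the labels do not say that a number marks a pool, and in this comparison the numbers were not taken to pair the libraries. The members' median was -0.35, beside -0.14 over all genes, and ran from -0.44 to -0.18 with 1 library left out. All late libraries lay below all continuous libraries at 17 of 83 members, beside 10.7% of all genes, and above them at 1 member, Rps24, beside 12.3%. Between same-numbered libraries, not taken as pairs here, the member medians were -0.57, -0.18 and -0.23, and those of all genes 0.04, -0.12 and -0.10. At Rpl10, for instance, late IL-10 gave 602, 910 and 776 and continuous IL-10 gave 1420, 1308 and 1081 (log2 difference -0.75, limma adjusted p = 0.161, and 0.0349 with the replicate block). The interval lay within 1 log2 for 13 members, beside 17.5% of all genes, and for 38 with the replicate block, beside 35.7%. The 3 comparisons with the LPS group share its libraries, and the 2 IL-10 comparisons each share a group with the last one, so their values are not independent.

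Genes of related pathways were read with the same fit. Of 78 mitochondrial ribosomal protein genes, whose products build the separate ribosome of mitochondria, 4 were higher and 5 lower with LPS, where 12.8% of all genes were higher and 11.4% lower. Mrpl39 and Mrpl30 had the largest rises (log2 differences of 5.80 and 2.33), and Mrpl41 and Mrpl2 the largest falls (-3.39 and -2.02). Of the 78 genes, 43 had a region that also overlapped another protein-coding gene. Signal in such a region is not that of the listed gene alone, and the part of neighbours was not tested. Of 26 translation factors and other genes with terminal oligopyrimidine mRNAs, 2 were higher, Eif3e (1.39) and Pabpc1 (1.08), and 2 lower, Eif4a1 (-0.98) and Tpt1 (-0.80). The Eif4a1 values are also those of the neighbouring macrophage gene Cd68. Of 31 ribosome biogenesis genes, Rrs1 was higher (3.75) and Fbl, the nucleolar methyltransferase fibrillarin, lower (-1.22). Of 16 regulators of ribosomal protein synthesis, 3 were higher and 2 lower. Larp1, which binds the terminal oligopyrimidine tract, rose from 625 ± 228 to 1810 ± 417 (SD, n = 3; log2 difference 1.57, limma adjusted p = 0.00313). Rptor, the mTOR complex subunit Raptor, fell from 8972 ± 471 to 2750 ± 592 (-1.73, limma adjusted p = 0.00136). The others were Zbtb7a (1.25), Max (0.74) and Rps6kb2, an S6 kinase (-2.07). Regions were shared with another protein-coding gene at 9 of the 26 translation genes, 16 of the 31 biogenesis genes and 5 of the 16 regulators. Across the 4 lists, limma and edgeR called none of the 151 genes in the 3 other comparisons. In continuous IL-10 minus LPS, late IL-10 minus LPS and late minus continuous IL-10, limma called 2.09%, 2.71% and 1.46% of all genes higher. It called 2.56%, 0.215% and 0.509% lower. With edgeR the shares were 1.69%, 2.31% and 0.485% higher and 1.92%, 0.183% and 0.262% lower. In the same order, 12, 6 and 11 of the 151 reached an unadjusted p under 0.05 in limma, beside 2138, 1390 and 2016 of all 12573 genes. DESeq2 called 7, 1 and 6 of the 151, beside 4.14%, 4.53% and 5.87% of all genes higher and 6.55%, 0.978% and 2.9% lower. The replicate block raised the 20 calls of these lists with LPS to 35, where it called 18.3% of all genes higher and 21.5% lower. It gave 5 in continuous and 5 in late IL-10 minus LPS. Beside these it called 6.28% and 5.77% of all genes higher and 8.72% and 2.47% lower.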

How the data were processed

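The submitters' processing notes name Bowtie2, Trim Galore, DiffBind, MACS2 and mm10, without versions, roles or order. The authors deposited a scaled signal per library for 40691 consensus regions. Dividing each library by its lowest value gave whole numbers for 100% of the values (tolerance 0.0001 reads), taken here as recovered reads. The lowest value was 1 read in every library, where 19.7% to 29.9% of its regions lay. No header or label says whether background was subtracted. The recovered reads, on which edgeR and DESeq2 were run, may therefore not be raw counts. An input library was not used here.

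Signal was summed per gene over regions overlapping its body by at least 1 bp, with RefSeq gene positions of GRCm38.p6. limma 3.58.1 in R 4.3.3 (trend, robust) was fitted to log2(value + 1) of all 12 libraries with group as the only term, on 12573 genes above the 10th percentile of mean log2 value. This scale understates folds at weak genes. Calls used Benjamini-Hochberg adjusted p under 0.05 over all genes, two-sided. With 3 libraries against 3 the smallest exact permutation p is 0.1, and no such test was used. edgeR 4.0.16 on recovered reads, an alternative, called 3421 genes between LPS and untreated, and DESeq2 1.42.0 was another. Adjusted p-values are limma's unless another tool is named. The fit was tested on simulated data for LPS against untreated (12573 genes): 0% of 50 genes changed 2-fold, 52% of 50 changed 4-fold and 80% of 50 changed 8-fold were called. In the simulation 12373 of the 12573 genes were unchanged, whereas the real LPS comparison called 1610 genes higher and 1435 lower. Adjusted p-values depend on how many genes change, so these shares do not give the sensitivity of the real comparison. Changes under 2-fold were called there, such as that at Rpl12.

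Same-numbered libraries deviated from their group means together in the comparisons with LPS (correlations from 0.26 to 0.63 with untreated, 0.12 to 0.66 with continuous and 0.52 to 0.79 with late IL-10), and their numbers were taken to pair them. Between late and continuous IL-10 the lowest was 0.02, and they were not. Libraries of different groups with different numbers correlated at up to 0.55, above some of the same-numbered values. Replicate 3 was also the deepest library in every group, and the part of depth in these correlations was not tested. Replicates correlated at 0.78 to 0.95 over genes.

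Named genes are all called members, the 3 with the highest and the 3 with the lowest signal per kb, a fixed list (Rplp0, Rplp1, Rplp2, Rpsa, Rps6, Rps3, Rpl3, Rpl13a, Rpl10, Rps18), the paralogs, and up to 2 called genes per direction of each pathway list; the further regulators, seventh-ranked and low-density genes, and the longest pyrimidine runs were named after their values were seen. Some genes are not reported here by name and are left out of the plots by gene, while the counts include them. Members and lists were chosen with earlier results of these data known. Alternatives were another pseudocount, no filter, median centring, quantile normalization, the replicate block, other region assignments and leaving out each library.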

Additional observations from a re-analysis of the deposited data

How the results depend on the processing

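Ribosomal protein genes called higher with LPS numbered 2, and 4 with quantile normalization, 5 with the replicate block and median centring together, 4 with edgeR and 9 with DESeq2, and from 2 to 4 with 1 library left out (4 without untreated replicate 3). Of all 12573 genes, 1610 were higher in the main fit, and 1938, 2538, 1923 and 2378 in these settings in order. With 1 library left out, 1073 to 1856 were higher. Members called lower numbered 5, but 8 with block and centring together, 1 with regions over 1 gene only, and from 2 to 7 with a library left out (7 without LPS replicate 3, 2 without any other of the 6 untreated and LPS libraries). Of all genes, 1435 were lower in the main fit, 2772 with block and centring, and 1218 of 9517 with regions over 1 gene only. Without LPS replicate 3 it was 2496, and without any other of the 6 libraries 862 to 1046. Rpl3 was called lower without each of these 6 in turn. With the replicate block, 7 were lower, beside 2704 of all 12573 genes. Calls at single regions numbered 7, 4 with median centring, 15 with block and centring, and from 4 to 10 with a library left out. Of all 36621 regions, 6053, 7087 and 10133 were higher and 6573, 5494 and 7751 lower in the main fit and these settings. With a library left out, 4403 to 8135 were higher and 4859 to 7514 lower.

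In continuous IL-10 minus LPS, where none was called, 1 was higher with median centring, 3 with quantile normalization, 1 with the block, 2 with block and centring and 2 with DESeq2. Of all genes, 268, 438, 789, 892 and 520 were higher in these settings in order. With the block, with block and centring, and with DESeq2, 1 member was lower, and from 0 to 1 with a library left out. Beside these, 1096, 1044 and 823 of all genes were lower, and 49 to 754 with a library left out. Regions called there numbered 1 with quantile normalization, 2 with the block, 3 with block and centring, 1 with DESeq2 and from 0 to 2 with a library left out. Of all 36621 regions, 1464, 2719, 2905 and 1876 were higher and 1301, 3287, 3102 and 2776 lower in these settings. With a library left out, 584 to 1751 were higher and 373 to 2777 lower. In late IL-10 minus LPS, 1 member was higher with median centring, with block and centring, with edgeR and with DESeq2. Beside these, 341, 801, 291 and 570 of all genes were higher. In late minus continuous IL-10, the numbers were not taken to pair the libraries. The replicate block there called 5 lower (Rpl10, Rpl3 and Rpl7l1 among them), and block and centring 1, beside 785 and 665 of all genes. DESeq2 called 1 higher and 1 lower, beside 738 and 365 of all genes. Regions called there numbered 3 with the block, 4 with block and centring and 1 with DESeq2. Of all 36621 regions, these settings called 2936, 2690 and 2200 higher and 1818, 2142 and 920 lower.

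Intervals within 1 log2 were more frequent wherever libraries were brought closer. For LPS minus untreated they numbered 13, and 37 with median centring, 36 with quantile normalization, 35 with the block, 41 with block and centring, 6 with regions over 1 gene only, and 3 to 10 with a library left out. For continuous IL-10 minus LPS, 16 became 45, 49, 44, 55 and 5 in the same order, and 1 to 12 with a library left out. For late IL-10 minus LPS, 22 became 65, 67, 61, 71 and 13, and 5 to 20. For late minus continuous IL-10, 13 became 48, 48, 38, 57 and 6, and 2 to 5. Over all genes, in the same order, 1406 became 2492, 2635, 3178, 3639 and 797 for LPS minus untreated, and 885 to 1129. For continuous IL-10 minus LPS, 2210 became 3675, 4155, 4721, 5239 and 1256, and 1186 to 1609. For late IL-10 minus LPS, 2316 became 4276, 4690, 5264, 6155 and 1357, and 1387 to 2226. For late minus continuous IL-10, 2197 became 3629, 4192, 4492, 5139 and 1269, and 1282 to 1486. Leaving out a library leaves 2 in its group, and regions over 1 gene only leave fewer genes, 9517 in all.

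Pathway genes called with LPS numbered 20, and 31 with quantile normalization, 35 with the block, 50 with block and centring, 38 with DESeq2, 12 with regions over 1 gene only, and 10 to 35 with a library left out (35 without LPS replicate 3, 10 without untreated replicate 1). Of all genes in these settings, 1938, 2304, 2538, 2378 and 1240 were higher and 2022, 2704, 2772, 1959 and 1218 lower. With a library left out, 1073 to 1856 were higher and 862 to 2496 lower. In continuous IL-10 minus LPS, 0 became 1, 5, 10, 7 and 1 in the same order, and 0 to 6. Of all genes, 438, 789, 892, 520 and 224 were higher there and 377, 1096, 1044, 823 and 284 lower. With a library left out, 122 to 650 were higher and 49 to 754 lower. In late IL-10 minus LPS, pathway genes called numbered 5 with the block, 5 with block and centring, 1 with DESeq2, and 0 to 1. Beside these, 725, 801 and 570 of all genes were higher and 311, 154 and 123 lower. With a library left out, 185 to 420 were higher and 5 to 61 lower. In late minus continuous IL-10, 1 was called with quantile normalization, 8 with the block, 10 with block and centring, 6 with DESeq2, and 0 to 3. Beside these, 165, 1030, 1184 and 738 of all genes were higher and 155, 785, 665 and 365 lower. With a library left out, 1 to 487 were higher and 1 to 282 lower.

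Among single genes, some differences changed sign. In late IL-10 minus LPS, Rpl3l was 0.69 with a pseudocount of 10 and -0.73 with regions over 1 gene only. That setting leaves its region inside the gene, at 15.7, 1.68 and 0.464 with LPS and 1.76, 1.79 and 0.886 with late IL-10. All of these but LPS replicate 1 were at the floor of 1 read. Rpl7l1 was -0.072 with regions over 1 gene only and with the strongest region only. In late minus continuous IL-10, Rpl3l was 0.049 with median centring with or without the block, 0.021 with quantile normalization, 0.087 with edgeR and 0.12 with DESeq2. With a library left out, late IL-10 minus LPS ran from -0.15 to 0.35 for Rpl12, -0.45 to 0.16 for Rpl24 and -0.16 to 0.46 for Rpl7l1. Late minus continuous IL-10 ran from -0.074 to 0.48 for Rpl24 and -0.23 to 0.12 for Rpl3l, and continuous IL-10 minus LPS from -0.036 to 0.54 for Rpl3. In all, 1039 values on alternative settings were classed as unchanged. For a count this meant within a fixed factor of the main value, so the count itself could differ. For the members' median it meant within the spread between libraries, so its sign could differ. Of the counts and medians for members, regions and all pathway lists together, 261 were classed as unchanged and 107 moved. Of differences at named single genes, 22 reversed in sign, and 12 lost and 32 gained a call. Counts for separate pathway lists moved in 108 instances. Where a value moved, the cause was not tested. In simulated data with few changed genes, 2-fold changes were not called, while smaller changes were called in the real LPS comparison.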
